A study of Homo sapiens with 4 samples.

Results

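The 9 genes described here make, recycle or destroy the building blocks of DNA, the deoxynucleoside triphosphates (dNTPs). They were chosen by name and function, with earlier results of these data known, and are 9 of 60617 gene rows in the table. All 9 were among the 17309 genes with enough reads to test. Transcripts were measured by RNA sequencing in A673 cells, an established line from a human Ewing sarcoma driven by an EWSR1-FLI1 fusion and without functional p53. One group of 2 libraries came from cells given the solvent DMSO and the other group of 2 from cells given 1 µM CBL0137, each for 24 h, with no other genetic change or agent named in the labels. CBL0137 is a curaxin, a small molecule that binds DNA and traps on chromatin the histone chaperone FACT. All libraries come from this one cell line, and the labels do not say whether replicates were separate cultures, so each p-value reflects the spread between libraries alone, and that spread may be technical.

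Ribonucleotide reductase removes an oxygen from ribonucleoside diphosphates and sets the pace of de novo dNTP supply. Its large subunit is RRM1, and its small subunit is either RRM2, made in S phase and destroyed in mitosis, or RRM2B, known as p53R2, which p53 induces and which serves repair and mitochondrial DNA outside S phase. TYMS makes dTMP from dUMP, DUT hydrolyses dUTP to dUMP and so keeps uracil out of DNA, and CTPS1 makes CTP. TK1 and DCK phosphorylate deoxynucleosides taken up from outside or released inside the cell, the salvage route, and SAMHD1 breaks dNTPs back down to nucleosides.

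Reads assigned to genes numbered 20483714 to 23373554 per library. The 8 Ewing sarcoma markers checked were all detected, with CD99 at 33271 to 36378 reads. Of these 8, 1 rose, ETV4 (log2 change 0.99 ± 0.15), beside 6.88% of all tested genes, and 0 fell, beside 2.73%. At the adjusted p alone 3 were higher, beside 17.5% of tested genes, and 1 was lower, beside 19.0%. The 8 epithelial markers summed to 291 and 292 CPM (counts per 1000000 gene reads, in such sums without TMM scaling) in DMSO and 482 and 505 CPM in CBL0137. Of these, 3 had enough reads to test, and KRT8 and KRT18 rose and supplied nearly all of the sum. KRT8 lay just past the fold limit of 1.5 (log2 change 0.59 ± 0.04, 95% interval 0.50 to 0.68), and KRT18 stood at 0.79 ± 0.04. On the authors' FPKM, limma-trend called 1 of the 2 epithelial markers that passed its filter. GRHL2 had 0 reads in each library and CDH1 0 to 4. The 6 blood cell markers, 3 of them tested, summed to 4.73 and 5.22 CPM in DMSO and 7.63 and 7.96 CPM in CBL0137, with CD3E and HBB at 0 reads throughout. ITGAM made up most of that sum. In CPM of single genes, which here and below are after edgeR's TMM scaling, ITGAM rose from 3.81 and 3.60 to 6.33 and 5.92. CD14, at 6 to 17 reads, was not called (log2 change 1.19 ± 0.57). What part these markers have in the results was not tested.

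Promoter stretches of RRM2, RRM1, TK1, SAMHD1, TYMS and DUT are shown because they hold letters known from cell cycle promoters. RefSeq promoter windows (GRCh38.p14), each the 250 bases before a start site, were listed for 8 of the 9 genes in 14 windows. They were searched on both strands for an E2F-like motif (TTTCCCGC, TTTCGCGC, TTTGCCGC or TTTGGCGC), for the CCAAT box (CCAAT) and for the GC box (GGGCGG); no printed E2F-like match overlaps a CCAAT match. Capitals mark an E2F-like or CCAAT match, which on the reverse strand reads as GCGGGAAA or ATTGG, and each line runs 5′ to 3′ along the gene.
RRM2, chr2:10122608-10122629, plus strand: aggcgcagCCAATgggaagggt
RRM2, chr2:10122638-10122659, plus strand: tggcacagCCAATgggaagggc
RRM2, chr2:10122665-10122686, plus strand: caccaaagCCAATgggaagggc
RRM1, chr11:4094649-4094670, plus strand: gtccatatCCAATggggcccat
TK1, chr17:78187116-78187137, minus strand: gggcgctgATTGGccccatggc
TK1, chr17:78187085-78187106, minus strand: ggctcgtgATTGGccagcacgc
SAMHD1, chr20:36951739-36951760, minus strand: aggCCAATaggctgCCAATact
TYMS, chr18:657607-657628, plus strand: gacggccGCGGGAAAaggcgcg
DUT, chr15:48332152-48332181, plus strand: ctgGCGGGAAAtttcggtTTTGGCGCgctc

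The 3 CCAAT boxes of RRM2 begin 123, 93 and 66 bases before a start site and share a run of 15 bases, agCCAATgggaaggg. A further RRM2 window held 1 CCAAT box, 249 bases before its start. TK1 carried 2 CCAAT boxes on the reverse strand, at 77 and 46 bases, and RRM1 carried 1 at 28 bases. SAMHD1 carried 2, between 49 and 34 bases before its start. The E2F-like motif was in windows of TYMS (1 match) and DUT (2 matches), in 2 of the 14 windows, and 2.79% of all 35116 RefSeq windows of this length hold it. A CCAAT box was in 5 of the 14 windows, those of RRM1, RRM2, TK1 and SAMHD1, near its share of 32.0% among all windows. A GC box was in 9 of the 14 and in 42.6% of all windows. The CCAAT box thus occurred in RRM1 and RRM2, which fell, and in SAMHD1, which rose. A match describes letters, not a bound factor.

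After 24 h of CBL0137, transcripts of RRM2, RRM1, TYMS and DUT fell, SAMHD1 rose, and RRM2B, CTPS1, TK1 and DCK were not called. In RNA from whole cultures, fewer cells of a type and less RNA per cell cannot be told apart. A gene was called, and is said to have risen or fallen, at a Benjamini-Hochberg adjusted p under 0.05 in edgeR's quasi-likelihood test over all 17309 genes together with a fold change above 1.5, a log2 change beyond 0.585. So 4 of 9 fell, against 2.73% of all tested genes, and 1 of 9 rose, against 6.88%. Such shares describe genes chosen with earlier results of these data known and are no test. At the adjusted p alone, with no fold limit, 7 of 9 were lower, against 19.0% of tested genes, and 1 was higher, against 17.5%. The median log2 fold change of the 9 was -0.39, beside 0.003 over all tested genes.

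**Figure D1:**
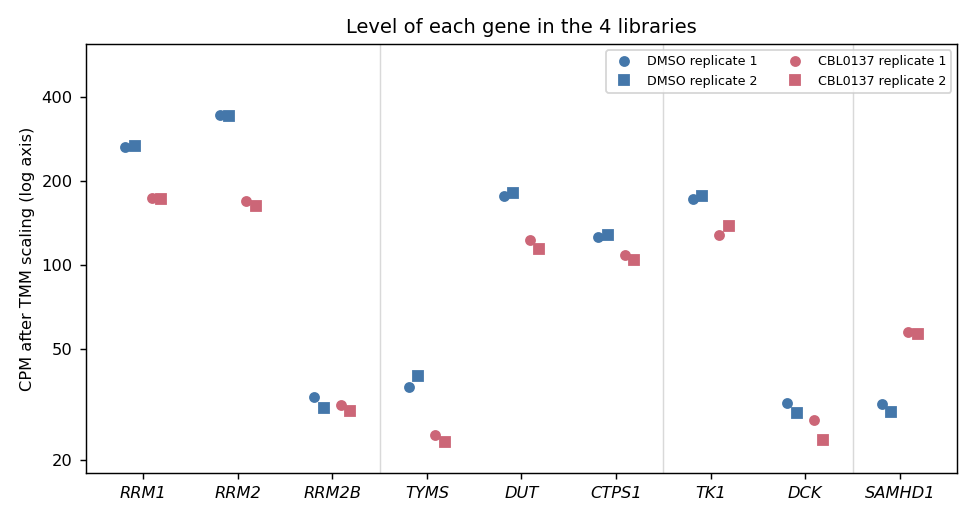
Level of each of the 9 genes in CPM after TMM scaling (log axis) in the 2 DMSO and 2 CBL0137 libraries, 1 point a library. RRM2 drops from 344 to 163 and 169 CPM, while the RRM2B points of both conditions lie between 30.01 and 33.7 CPM.

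RRM2 (ENSG00000171848, chromosome 2, 10260825 to 10351851 in GRCh37) had 344 CPM in both DMSO libraries, and 169 and 163 CPM in CBL0137 replicates 1 and 2. The CBL0137 libraries lay far under the DMSO ones, and replicates of a condition were within a few percent of each other. Its level was 344 ± 0.490 against 166 ± 4.19 CPM (mean ± SD over n = 2 libraries, as for all such values), 2.07-fold lower, and 0.965% of tested genes had a log2 change at or under its own of -1.05 ± 0.04 (SE; edgeR adjusted p = 1.3e-16). RRM1 (ENSG00000167325, chromosome 11, 4115937 to 4160162), the catalytic partner, had 264 and 267 CPM in DMSO and 173 and 172 CPM in CBL0137. The groups did not overlap, and the fall, 1.54-fold or -0.62 ± 0.04 on the log2 scale (edgeR adjusted p = 2e-12), had a 95% interval of -0.70 to -0.54, above that of RRM2, -1.12 to -0.97. RRM2B (ENSG00000048392, chromosome 8, 103216730 to 103251189) had 33.7 and 30.8 CPM in DMSO and 31.6 and 30.01 CPM in CBL0137, and the groups overlapped. Its log2 change was -0.07 ± 0.07 (edgeR adjusted p = 0.5), with a 95% interval from -0.22 to 0.08 that leaves out a change of 1.5-fold either way.

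The small subunits were set against each other by their reads within a library, a ratio into which library scaling does not enter. For each RRM2B read there were 10.2 and 11.1 RRM2 reads in DMSO, and 5.37 and 5.45 in CBL0137. The ratio was thus about as far apart between conditions as RRM2 itself, 10.7 ± 0.668 against 5.41 ± 0.0583, a log2 difference of -0.98. The exact two-sided permutation test gave p = 0.333, the smallest that 2 libraries against 2 allow, so this design cannot reach 0.05. From the authors' FPKM, which divide by gene length, the ratio of levels was 15.2 and 18.1 in DMSO and 8.11 and 7.49 in CBL0137. RRM2B was the scarcer small subunit transcript in each library.

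RRM2 was also compared with the large subunit as a ratio within each library. There were 1.30 and 1.29 RRM2 reads per RRM1 read in DMSO and 0.977 and 0.950 in CBL0137, a log2 difference of -0.43 (exact permutation p = 0.333, the smallest possible). The ratio was lower in both CBL0137 libraries, as it was from FPKM, with 1.24 and 1.30 in DMSO against 0.827 and 0.785. Which subunit has the higher level depends on the scale. RRM2 exceeded RRM1 in FPKM in DMSO only. Reads per kilobase of annotated exon, scaled by library total without TMM factors, put RRM2 under RRM1 in each library (means of 36.7 against 61.3 in DMSO and 18.6 against 41.6 in CBL0137). RRM1 had 7.83 and 8.65 reads per RRM2B read in DMSO and 5.49 and 5.74 in CBL0137.

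**Figure D2:**
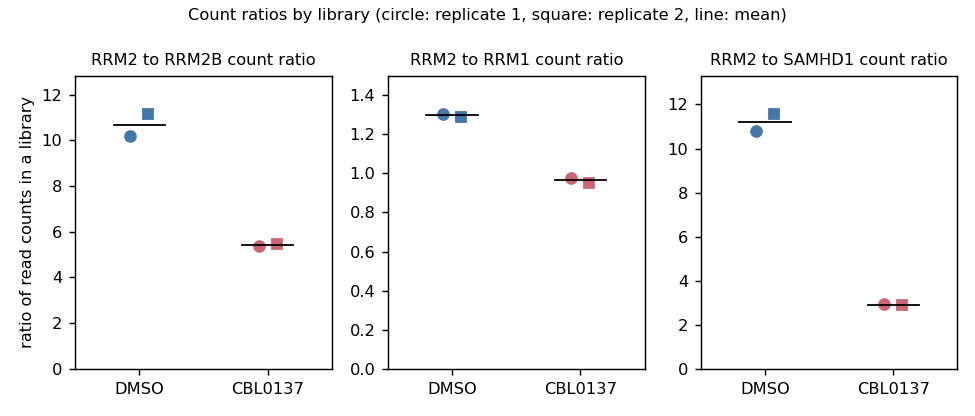
Ratio of the reads of RRM2 to those of RRM2B, RRM1 and SAMHD1 in each library (linear axes from 0; circle replicate 1, square replicate 2, line the mean of 2). In each panel the CBL0137 points lie under the DMSO points, and the RRM2 to SAMHD1 ratio goes from 11.2 to 2.91.

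TYMS (ENSG00000176890, chromosome 18, 657653 to 673578), the only de novo source of dTMP and the target of fluorouracil, had 36.5 and 40.0 CPM in DMSO and 24.7 and 23.2 CPM in CBL0137. The conditions did not overlap, and TYMS fell (log2 change -0.68 ± 0.08, edgeR adjusted p = 9.2e-08). DUT (ENSG00000128951, chromosome 15, 48623208 to 48635570), a source but not the only one of the dUMP that TYMS uses, had 177 and 182 CPM in DMSO and 123 and 114 CPM in CBL0137. Its fall of 1.52-fold (-0.60 ± 0.04, edgeR adjusted p = 5.9e-11) lay just past the fold limit, with a 95% interval from -0.69 to -0.51 on both sides of it. CTPS1 (ENSG00000171793, chromosome 1, 41444972 to 41478237) had 126 and 128 CPM in DMSO and 108 and 104 CPM in CBL0137, lower in both treated libraries but not called (-0.26 ± 0.05, edgeR adjusted p = 6.4e-05).

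Neither salvage kinase passed the fold limit. TK1 (ENSG00000167900, chromosome 17, 76170172 to 76183314), the S phase thymidine kinase of the cytosol, had 172 and 178 CPM in DMSO and 128 and 138 CPM in CBL0137. Its levels did not overlap between conditions, and its log2 change was -0.39 ± 0.04 (95% interval -0.48 to -0.30, edgeR adjusted p = 1.1e-07). DCK (ENSG00000156136, chromosome 4, 71858255 to 71896631), which activates deoxycytidine and drugs such as cytarabine and gemcitabine, had 32.1 and 29.5 CPM in DMSO and 27.9 and 23.6 CPM in CBL0137. The conditions came closer to each other there, with DMSO replicate 2 just above CBL0137 replicate 1, and the log2 change was -0.26 ± 0.08 (95% interval -0.44 to -0.09, edgeR adjusted p = 0.016). Without CBL0137 replicate 2 the DCK change was -0.14 (edgeR adjusted p = 0.27), and its adjusted p was also above 0.05 without DMSO replicate 1 (0.12), with DESeq2 (0.094), on library size alone (0.053) and on FPKM with limma-trend (0.24). TK1 gave 5.36 and 6.02 reads per DCK read in DMSO and 4.597 and 5.87 in CBL0137, so the ratio of the kinases overlapped between conditions.

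Set side by side, 4 of 6 de novo genes (RRM1, RRM2, RRM2B, TYMS, DUT and CTPS1) and 0 of 2 salvage kinases were called at the fold limit by edgeR, DESeq2 and limma-voom. Those 4 fell, beside 2.73% of all 17309 tested genes in edgeR. In both directions edgeR called 1663 of the 17309, DESeq2 1066 and limma-voom 1651. RRM1 and DUT lost their calls under upper-quartile factors, on library size alone and on FPKM with limma-trend. At edgeR's adjusted p alone both kinases were lower, a call that DCK lost under the settings named with its values above. TK1 lost it on FPKM (limma-trend adjusted p = 0.056), as did the de novo gene CTPS1 (limma-trend adjusted p = 0.083). The median log2 fold change was -0.61 for the de novo genes and -0.33 for the kinases. The mean log2 CPM of the de novo genes exceeded that of the kinases by 0.65 and 0.70 in DMSO and by 0.45 and 0.46 in CBL0137, a change of -0.22. This difference between routes is over chosen genes and has no test, and it was -0.31 with RRM2B left out. RRM2B lay nearer to 0 than either kinase. CTPS1 (-0.26) was level with DCK (-0.26) and nearer to 0 than TK1 (-0.39). The routes thus do not divide the genes cleanly.

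**Figure D3:**
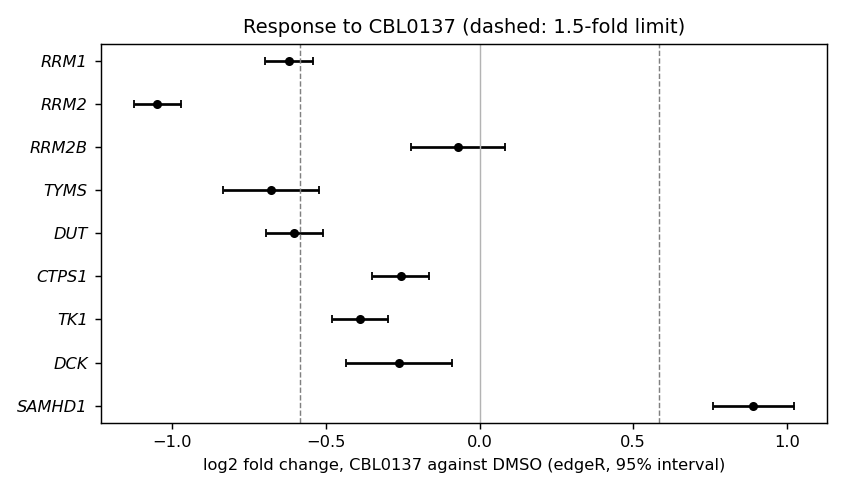
Log2 fold change of CBL0137 against DMSO for each gene with its 95% interval from edgeR; dashed lines mark the fold limit of 1.5. RRM2 at -1.05 and SAMHD1 at 0.89 lie clear of the limit, the intervals of RRM1, TYMS and DUT reach across it, and that of RRM2B crosses 0.

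SAMHD1 (ENSG00000101347, chromosome 20, 35518632 to 35580296) went the other way. This dNTP triphosphohydrolase, known for starving retroviruses of dNTPs in resting cells, had 31.9 and 29.7 CPM in DMSO and 57.7 and 56.6 CPM in CBL0137. Both treated libraries lay well above both controls, a rise of 1.85-fold (0.89 ± 0.06, edgeR adjusted p = 4.1e-11), and 5.85% of tested genes had a log2 change at least as high. Against RRM2, the reads stood at 10.8 and 11.6 RRM2 reads per SAMHD1 read in DMSO and 2.94 and 2.89 in CBL0137. That is a 3.84-fold drop in the ratio of a synthesis to a breakdown transcript, a pair singled out after its values were seen (exact permutation p = 0.333, the smallest possible).

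Levels of different genes were ordered per length, with the FPKM of the authors' table. In DMSO the order was TYMS (113 ± 9.16 FPKM), TK1 (80.5 ± 2.38), RRM2 (78.4 ± 2.82), DUT (68.5 ± 0.276), RRM1 (61.7 ± 0.0991), CTPS1 (28.8 ± 0.744), DCK (9.91 ± 0.506), RRM2B (4.74 ± 0.419) and SAMHD1 (4.42 ± 0.242). TK1 and RRM2 overlapped between libraries there, as did RRM2B and SAMHD1. In CBL0137, TK1 led at 64.6 ± 5.30 FPKM and overlapped with TYMS at 63.4 ± 0.678, RRM2 stood at 34.7 ± 0.204, under RRM1 at 43.1 ± 1.33, and SAMHD1 at 8.55 ± 0.0825 was near DCK at 8.86 ± 0.263 and above RRM2B at 4.46 ± 0.222. Part of this order turned on reads per kilobase of annotated exon, scaled by library total without TMM factors. In CBL0137, SAMHD1 (5.38) was then under RRM2B (5.83) and DCK (8.47). In DMSO, TYMS (15.5) dropped under TK1 (92.6), RRM1 (61.3), DUT (47.8) and RRM2 (36.7).

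The deposited counts and FPKM gave different pictures of the TYMS level. Reads per kilobase of exon (GENCODE 44 on GRCh37), scaled by library total without TMM factors, came to 15.5 ± 0.992 for TYMS in DMSO, 7.29 times less than its FPKM. For the other 8 genes, FPKM was 0.809 to 2.77 times the value from counts, with RRM2B lowest and CTPS1 highest. Of the exon bases of TYMS, 47.9% are shared with ENOSF1 and TYMSOS, which lie on the opposite strand, and 14.5% of those of DUT with DUT-AS1. Reads that fit more than 1 gene were set aside as ambiguous, 9.19% to 9.50% of all reads per library, and how many TYMS reads were among them was not tested. No source used here gives the strand setting of the counting, so reads of TYMS and of its antisense neighbours may be mixed. ENOSF1 had 44.2 and 40.8 CPM in DMSO and 43.7 and 38.5 CPM in CBL0137, with a log2 change of -0.05 ± 0.07. On log2(FPKM + 1) the change of TYMS was -0.82, larger than from counts.

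**Figure D4:**
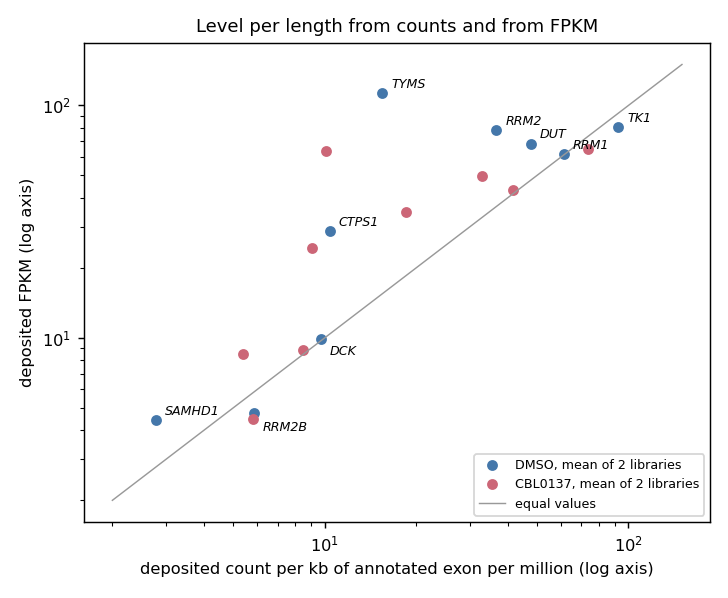
Mean deposited FPKM of each gene against its mean deposited count per kilobase of annotated exon, scaled by library total (both axes log; blue DMSO, red CBL0137, means of 2 libraries, names beside the DMSO points). The other 8 genes lie within 3-fold of the line of equal values, and TYMS lies 7.29-fold above it in DMSO and 6.28-fold in CBL0137.

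Of 46 tested genes in 4 further lists of nucleotide metabolism, 2 rose, beside 6.88% of all tested genes, 2 fell, beside 2.73%, and 42 were not called, so these shares were near the background. At the adjusted p alone 21 of the 46 were lower, beside 19.0% of tested genes, and 6 were higher, beside 17.5%. Their median log2 change was -0.16. Of 11 genes of pyrimidine synthesis and the thymidylate cycle, 0 were called at the fold limit by edgeR, and 4 were lower and 2 higher at the adjusted p alone. At an unadjusted p under 0.05 the counts were 0 past the fold limit and 7 without it. Over all 17309 tested genes these 2 counts were 2052 and 7757. DESeq2 and limma called 0 of the 11. The pyrimidine list was led by DTYMK, which turns dTMP into dTDP (-0.46 ± 0.05), SHMT1 of the folate cycle (-0.48 ± 0.06) and CAD, which starts pyrimidine synthesis (-0.30 ± 0.03). Of 14 purine synthesis genes, 0 were called and 7 were lower at the adjusted p alone, with the same 0 and 7 at an unadjusted p under 0.05 and 0 by DESeq2 and limma. IMPDH1 (-0.35 ± 0.04) and IMPDH2 (-0.32 ± 0.05), which commit IMP to guanine nucleotides, led this list, but on log2(FPKM + 1) IMPDH1 stood at -0.019 (limma-trend adjusted p = 0.87) and IMPDH2 at -0.39 (adjusted p = 0.091).

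Of 11 tested salvage genes, 1 rose and 0 fell, beside 6.88% and 2.73% of tested genes. TYMP, the thymidine phosphorylase that removes thymidine, rose from 8.27 and 9.06 to 13.8 and 13.4 CPM (0.65 ± 0.12). The call was lost without DMSO replicate 1 (0.58), and HPRT1 (-0.30 ± 0.06) and UCK2 (-0.26 ± 0.06) were not called. Of 10 genes of breakdown and pool cleansing, 1 rose, beside 6.88% of tested genes, and 2 fell, beside 2.73%. NT5E, the ecto-nucleotidase CD73, rose from 30.8 and 33.4 to 63.3 and 66.9 CPM (1.02 ± 0.06). NT5M, a mitochondrial deoxynucleotidase, fell from 2.89 and 3.29 to 1.86 and 0.993 CPM (-1.13 ± 0.29), and its call was lost without CBL0137 replicate 2 (-0.73). On log2(FPKM + 1), limma-trend called 1 of the 45 genes that passed its filter, NT5E.

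Thioredoxin and glutaredoxin systems hand electrons to ribonucleotide reductase. Of 7 such genes, 0 were called at the fold limit by edgeR, DESeq2 or limma. At the adjusted p alone 4 were lower, beside 19.0% of all tested genes. At an unadjusted p under 0.05 the counts were 0 past the fold limit and 4 without it. Over all 17309 tested genes they were 2052 and 7757. TXNRD1, thioredoxin reductase, had 367 and 373 CPM in DMSO and 250 and 257 CPM in CBL0137 (-0.55 ± 0.04), and GSR, glutathione reductase, had 165 and 169 against 117 and 115 CPM (-0.53 ± 0.04). Both lay just inside the limit, while TXN2 of mitochondria stood at -0.22 ± 0.06.

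**Figure D5:**
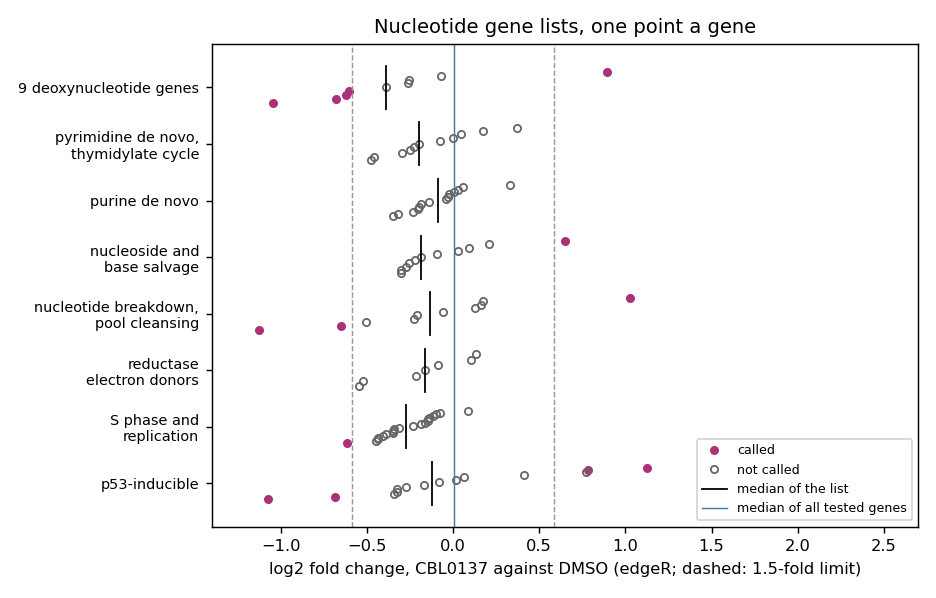
Log2 fold change of CBL0137 against DMSO for the 9 genes and for the tested genes of 7 related lists (1 point a gene, filled where called; black bar the list's median, blue line the median of all tested genes, dashed lines the fold limit). The 9 genes have a median of -0.39, the S phase list -0.27 and the p53-inducible list -0.13.

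The S phase and p53 lists give the setting of RRM2 and RRM2B. Of 20 S phase and replication genes, CDC45, a helicase subunit, fell (-0.62 ± 0.06) and 0 rose, beside 2.73% and 6.88% of tested genes. At the adjusted p alone 15 were lower, beside 19.0% of tested genes, and the median was -0.27. The sliding clamp PCNA (-0.44 ± 0.04) and the helicase subunit MCM7 (-0.39 ± 0.03) were not called, and CDC45 lost its call without DMSO replicate 1 (-0.57) or CBL0137 replicate 1 (-0.58), and under upper-quartile factors (-0.57), library size alone (-0.56) or FPKM (-0.54). RRM2 at -1.05 was lower than each of the 20. Of 14 p53-inducible genes, 2 rose, beside 6.88% of tested genes, 2 fell, beside 2.73%, and 10 were not called. The median of this list was -0.13. CDKN1A, the p21 inhibitor of cyclin-dependent kinases, rose (0.78 ± 0.05), as did the quinone reductase TP53I3 (1.12 ± 0.25; not called on FPKM, at 0.66), while the ferredoxin reductase FDXR (-0.68 ± 0.08) and the pro-apoptotic BBC3 (-1.07 ± 0.20) fell. RRM2B at -0.07 lay a little above the median of this list, in a line without functional p53.

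Among genes averaging 5 CPM or more, those nearest to RRM2 by Euclidean distance of centred log2 CPM over the 4 libraries included SPC24, a kinetochore subunit, the GTPase RAC3, and HILPDA of lipid droplets, at distances of 0.049 to 0.076. Their log2 changes were -1.04, -1.03 and -1.12. Those nearest to RRM2B were FBXO30, DNTTIP2, GORAB and ABHD3, with log2 changes of -0.06, -0.07, -0.06 and -0.06, and on log2(FPKM + 1) all 4 turned sign. With 4 libraries such likeness says little beyond an equal size of change.

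Under upper-quartile factors or library size alone, RRM1 (-0.57 and -0.56) and DUT (-0.55 and -0.54) were no longer past the fold limit, and DUT also fell short without CBL0137 replicate 2 (-0.55). RRM2, TYMS and SAMHD1 were called under each alternative that was run.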

How the data were processed

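RNA sequencing of 4 libraries was analysed from the authors' table of 60623 rows. Trim Galore, HISAT2 on hg19 and HTSeq 0.11.1 led to the authors' deposited counts per gene, per the submitters' processing notes. These notes also name DESeq2 1.26.0. FPKM were deposited by the authors as well, computed from reads, gene length and depth per the labels; their tool, the annotation release and the strand setting are not given in the sources used here. In the table, 5 HTSeq summary rows held 23.7% to 24.8% of all reads, and they and 1 leftover header row stayed out of library sizes and tests. Symbols came from GENCODE 44 lifted to GRCh37, which named 58524 of 60617 gene rows.

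Groups were read from sample titles. Counts were tested with edgeR 4.0.16 in R 4.3.3 (TMM factors, filterByExpr at a minimum count of 10, quasi-likelihood test, condition only, Benjamini-Hochberg adjustment over 17309 genes). A call needed both an adjusted p below 0.05 and more than a 1.5-fold change. Standard errors are the log2 change over the root of the F statistic. Common biological variation between replicates was 3.18% (edgeR's coefficient). Tested on simulated data of this comparison (16939 genes), it recovered 76.0% of 96 genes with a 2-fold change and 65.6% of 96 with a 1.6-fold change, and called 2 of the 16747 left unchanged. Replicates were not duplicates: chi-square per degree of freedom was 2.07 in DMSO and 2.57 in CBL0137 (20.8 between DMSO replicate 1 and CBL0137 replicate 1).

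Alternatives were upper-quartile or RLE factors, no scaling beyond library size, other filters, DESeq2 1.42.0, limma-voom (limma 3.58.1), no fold limit, a replicate block, each library left out, and limma-trend on log2(FPKM + 1). The 9 genes and all lists were chosen with earlier results of these data known. Besides the 9, the text names for each list every called gene, filled up to 3 by smallest adjusted p, and the 4 genes nearest in pattern to RRM2 and to RRM2B; some genes that this rule names are not reported here. RRM2B is not in the promoter table.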

Additional observations from a re-analysis of the deposited data

How the results depend on the processing

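With no fold limit 6314 genes and 8 of the 9 were called. DESeq2 called 1066 genes and limma-trend on log2(FPKM + 1) called 577, against 1663 in edgeR, while the 9 genes gave 5 calls with DESeq2 and 3 on FPKM, where RRM1 and DUT fell short. Upper-quartile factors and library size alone also left 3 of the 9 called. The log2 change of the RRM2 to RRM2B ratio was -1.09 from FPKM, against -0.98 from counts. The de novo less salvage change was -0.31 on log2(FPKM + 1) and -0.31 without RRM2B, against -0.22. The cause of these differences was not tested, except that the last drops a gene that changed little. Leaving out each library gave 4 or 5 calls among the 9. Of 117 recomputed log2 changes of the 9 genes, 0 turned sign and 7 dropped inside the fold limit, all of RRM1 or DUT. Among the other named genes, library size alone turned the sign of FBXO30 (0.0017) and ABHD3 (0.0049). FPKM did so for FBXO30 (0.024), DNTTIP2 (0.0038), GORAB (0.046) and ABHD3 (0.019), and leaving out DMSO replicate 1 for FBXO30 (0.0065) and ABHD3 (0.00037), whose lowest values, without DMSO replicate 2, were -0.14 and -0.12. With the replicate number as a block, a replicate block that rests on a number alone, 1576 genes and 5 of the 9 were called. Deviations of same-numbered libraries correlated at -0.090 across genes. For genes of few reads, such as NT5M, 2 libraries per condition give wide errors.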
